A study of Homo sapiens with 36 samples.

Results

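The 42 genes described here are neighbours of RAI1 in 17p11.2, the region of chromosome 17 with a deletion on 1 copy in most people with Smith-Magenis syndrome. Whether each of them lies inside that deletion was not checked. They were taken by symbol from the 62710 genes of the deposited tables, RAI1 itself left out, and all 42 were found once. On GRCh38 they lie between positions 16929816 and 21043760 of chromosome 17, a span of 4.11 Mb, and the same span holds 11 other protein-coding genes, RAI1 included. RAI1 lies at 17681473 to 17811453 on the forward strand, with PEMT as the member before it and SREBF1 as the member after it. The cells were H9, an established line of human embryonic stem cells, turned into neurons by doxycycline-driven expression of the proneural factor NGN2. There were 9 groups of 4 libraries each: the genotypes WT, HET (RAI1+/-) and KO (RAI1-/-), each taken at day 0, at day 3 and again at day 7. All 9 groups share the H9 background and the NGN2 system. The labels do not say how the mutation was made or how many clones stand behind each genotype, so a genotype and its lines cannot be told apart.

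RAI1 is a chromatin-binding regulator of transcription that is widely expressed in neurons. Loss of 1 copy of RAI1 accounts for most features of Smith-Magenis syndrome, and its duplication with neighbours gives Potocki-Lupski syndrome. The neighbours themselves are unrelated in function: they include enzymes of lipid and folate metabolism, mitochondrial proteins, lysosomal and endosomal proteins, ubiquitin and transcription factors, cytoskeletal and ciliary proteins, and a matrix glycoprotein. In the RAI1 mutant cells compared here the labels name no change in the copy number of the neighbours, which was not tested. The comparison asks whether their transcripts differed between the RAI1 genotypes.

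Libraries held 23.9 to 56.7 M counts, and the 42 genes took 0.141 to 0.327% of a library. RAI1 transcripts were not lower in the mutants: its mean was 52.3 ± 15.3 CPM (normalised counts, scaled to the library total; SD, n = 4) in WT, 73.3 ± 15.7 in HET and 84.6 ± 14.2 in KO at day 7 (KO against WT on the log2 scale 0.69, SE 0.22, adjusted p = 0.0296), and the gene-level total does not check the genotype labels. Small structural RNAs took 2.84 to 27.5% of the counts of a library, with the highest shares in replicate 1 of HET at day 7 (27.5%) and replicate 1 of WT at day 7 (25.6%). The second of these also stood apart in its markers: 4 proliferation genes summed to 182 CPM in it against 27.2 to 84.5 in the other WT libraries of day 7. In bulk RNA, fewer cells of a type and less RNA per cell cannot be told apart.

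The promoters of 7 members are shown because 6 of them belong to the 4 pairs of members on opposite strands whose starts lie within 1 kb of each other, and because RASD1 differed from WT in more comparisons than any other member with an entry. They are RefSeq windows on GRCh38.p14, from 250 bases before to 50 after the start, given 5′ to 3′ on the strand of the gene. Capitals mark the neurogenin E-box CAGATG, the CCAAT box, the symmetric E-box CACGTG and the GC box GGGCGG, each searched on both strands.
TOM1L2 lies at chr17:17972351-17972650, reverse strand, and DRC3 at chr17:17972563-17972862, forward strand. ATPAF2 lies at chr17:18039119-18039418, reverse strand, and its window also holds the start of GID4. SMCR8 lies at chr17:18315043-18315342, forward strand, and overlaps the window of TOP3A on the other strand. B9D1 lies at chr17:19377864-19378163, reverse strand, and MAPK7 at chr17:19377500-19377799, forward strand. RASD1 lies at chr17:17496346-17496645, reverse strand.
TOM1L2: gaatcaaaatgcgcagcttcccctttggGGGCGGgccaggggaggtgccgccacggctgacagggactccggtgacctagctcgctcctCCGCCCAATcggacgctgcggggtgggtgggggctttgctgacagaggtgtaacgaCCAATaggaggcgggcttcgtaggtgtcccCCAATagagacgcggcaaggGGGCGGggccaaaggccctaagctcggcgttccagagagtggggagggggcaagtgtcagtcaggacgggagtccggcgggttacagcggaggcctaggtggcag
DRC3: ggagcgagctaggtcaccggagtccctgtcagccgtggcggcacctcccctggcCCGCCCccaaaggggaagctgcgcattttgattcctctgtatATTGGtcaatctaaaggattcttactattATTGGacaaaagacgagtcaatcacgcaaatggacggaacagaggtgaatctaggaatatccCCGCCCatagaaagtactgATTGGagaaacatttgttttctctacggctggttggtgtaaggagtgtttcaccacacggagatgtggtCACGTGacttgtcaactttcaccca
ATPAF2: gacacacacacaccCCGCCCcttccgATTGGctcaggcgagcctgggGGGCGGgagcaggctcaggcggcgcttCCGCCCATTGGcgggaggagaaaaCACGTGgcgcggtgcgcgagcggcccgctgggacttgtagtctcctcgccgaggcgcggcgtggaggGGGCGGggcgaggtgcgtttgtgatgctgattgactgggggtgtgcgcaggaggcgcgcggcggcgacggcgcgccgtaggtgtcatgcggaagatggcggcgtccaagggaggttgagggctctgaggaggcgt
SMCR8: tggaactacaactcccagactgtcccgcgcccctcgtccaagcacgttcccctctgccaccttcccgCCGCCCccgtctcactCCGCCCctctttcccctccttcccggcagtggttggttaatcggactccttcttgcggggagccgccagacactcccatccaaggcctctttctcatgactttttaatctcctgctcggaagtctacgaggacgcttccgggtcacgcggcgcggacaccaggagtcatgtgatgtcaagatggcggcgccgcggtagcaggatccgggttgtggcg
B9D1: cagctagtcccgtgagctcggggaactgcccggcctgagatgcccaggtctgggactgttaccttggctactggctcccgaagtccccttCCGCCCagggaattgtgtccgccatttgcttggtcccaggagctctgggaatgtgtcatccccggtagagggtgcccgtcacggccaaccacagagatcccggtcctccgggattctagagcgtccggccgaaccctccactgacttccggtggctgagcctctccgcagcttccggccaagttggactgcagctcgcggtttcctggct
MAPK7: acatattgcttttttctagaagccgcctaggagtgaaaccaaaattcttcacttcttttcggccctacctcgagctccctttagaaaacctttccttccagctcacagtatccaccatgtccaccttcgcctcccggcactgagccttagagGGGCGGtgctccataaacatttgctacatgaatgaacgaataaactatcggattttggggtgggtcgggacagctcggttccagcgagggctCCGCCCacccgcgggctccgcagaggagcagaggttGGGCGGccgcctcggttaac
RASD1: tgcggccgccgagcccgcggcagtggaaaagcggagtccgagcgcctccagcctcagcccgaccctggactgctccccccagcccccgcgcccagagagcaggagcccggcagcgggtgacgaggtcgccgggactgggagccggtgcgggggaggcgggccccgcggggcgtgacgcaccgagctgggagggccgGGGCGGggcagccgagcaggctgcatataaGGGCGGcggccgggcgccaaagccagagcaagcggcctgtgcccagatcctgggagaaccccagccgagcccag

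The TOM1L2 and DRC3 windows each hold 3 CCAAT boxes, 1 of which overlaps a GC box by 2 letters in TOM1L2, and DRC3 also holds the CACGTG box. The ATPAF2 window holds 2 CCAAT boxes and 1 CACGTG box. The B9D1 and RASD1 windows hold GC boxes alone, as does the SMCR8 window. RefSeq lists a further start for B9D1, for MAPK7 and for DRC3, which are not shown. Among all 35116 RefSeq windows, 34.6% hold CCAAT, 7.26% CACGTG, 14.7% CAGATG and 45% GGGCGG. The 35 members with an entry have 51 windows, of which 18 hold CCAAT, 7 CACGTG, 4 CAGATG and 37 GGGCGG. None of the windows printed above holds the neurogenin E-box, which says only that these letters are not in these 300 bases. The members with no entry are ALDH3A1, EVPLL, GID4, MFAP4, PLD6, RNF112 and SLC47A1.

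In WT cells most neighbours of RAI1 changed in the course of the induction. Between day 0 and day 3, 16 of 38 members tested rose and 10 fell (adjusted p under 0.05 in edgeR, here and below), which is 68.4% of them, where 60% of all genes tested passed, 31.2% upwards and 28.7% downwards. Between day 3 and day 7, 7 rose and 17 fell, 63.2% against 46.2% of all genes, of which 23.3% rose and 22.9% fell. The median member changed by -0.34 on the log2 scale in the second interval against 0.01 over all genes tested. On the TPM scale, log2(TPM + 1), where the median of all genes moved by -0.38 from day 0 to day 3, 7 of the 16 rises no longer had a positive sign, those of MED9, ATPAF2, GID4, EPN2, MAPK7, ULK2 and SPECC1. The neuron-marker sum of WT went from 1410 to 1780 CPM at day 3 to 6950 to 13900 at day 7, while the pluripotency-marker sum went from 2430 to 3230 at day 0 to 50.5 to 61.4 at day 7. Per length, the most abundant members in WT were the deubiquitinase USP22 (92.1 TPM, the deposited transcript level scaled by length and library), COPS3 (62.3) and FLII (46.5) at day 0. At day 3 they were MPRIP (93.9 TPM), MFAP4 (90.1) and USP22 (32.1), and at day 7 USP22 (35.1), MPRIP (27.8) and ALKBH5 (16.3). A mean of at least 1 CPM was reached by 31 of the 42 members in WT at day 0, 33 at day 3 and 34 at day 7. EVPLL and LGALS9C, with 9 counts each over all 36 libraries, SLC5A10 with 45 and the B-cell receptor TNFRSF13B with 5 never passed the filter on low counts.

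**Figure D1:**
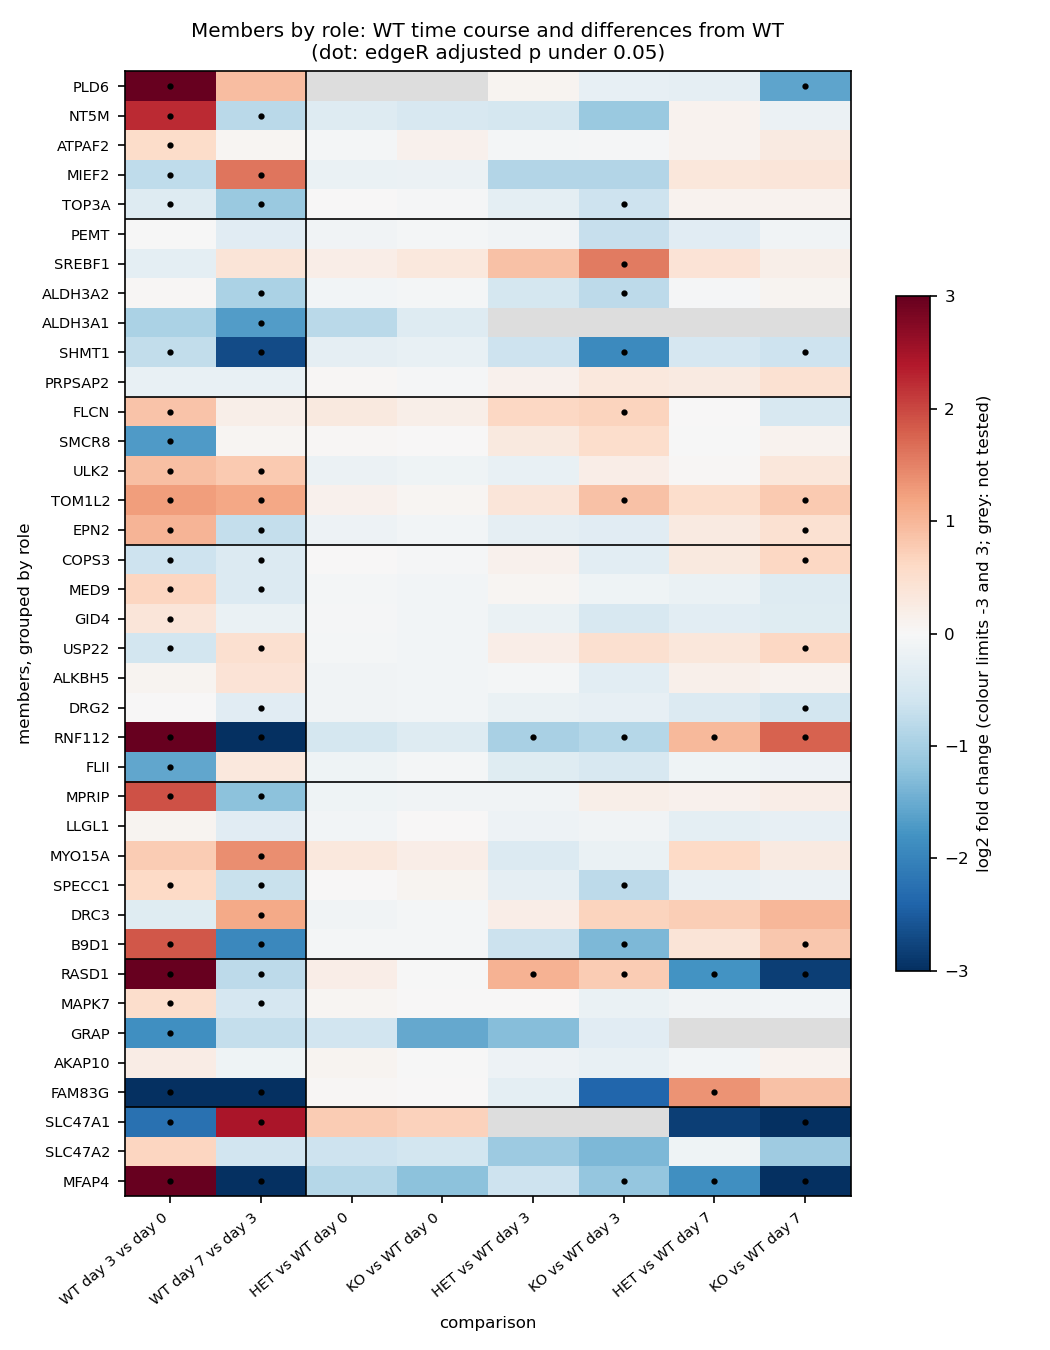
Log2 fold changes of the 38 members that could be tested (rows, grouped by role) in the WT time course (first columns) and in the 6 comparisons with WT (other columns). Dots mark an edgeR adjusted p under 0.05 and grey marks comparisons in which the gene was not tested; the WT columns carry 26 and 24 dots, the day 0 columns none.

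Against WT the members did not differ at day 0 beyond the threshold. In edgeR 0 of 37 were called in KO, where 2.08% of all genes tested were called, and 0 of 37 in HET, where 1.63% were. At an unadjusted p under 0.05 there were 4 members in KO and 5 in HET. DESeq2 called 2 in KO (GRAP, a lymphocyte adaptor, and MFAP4, both lower) and 0 in HET, beside 4.41% and 3.2% of all genes. All 4 mutant libraries lay outside the WT range for 3 members in KO, where 9.29% of all genes did, and for 2 in HET, where 7.83% did. KO against HET at day 0 also gave 0 of 37 (0.856% of all genes), with 1 member at an unadjusted p under 0.05 and 0 by DESeq2.

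At day 3, 4 of 36 members were higher in KO than in WT and 7 were lower, 30.6% of those tested against 21.6% of all genes, 12.6% higher and 8.93% lower. The higher genes were SREBF1, RASD1, FLCN and TOM1L2, and the lower genes SHMT1, ALDH3A2, B9D1, RNF112, SPECC1, MFAP4 and TOP3A. The groups of 4 did not overlap for 11 members, 4 above WT and 7 below, where 25% of all genes did not. The median member was -0.28 on the log2 scale and the median gene -0.05. Libraries with the same replicate number deviated together in this comparison. With the number as a block 21 members were called, 6 higher and 15 lower, and so were 37.7% of all genes. The 10 added by the block were SMCR8 and USP22, higher, and NT5M, PEMT, GID4, FLII, MIEF2, FAM83G, EPN2 and SLC47A2, lower. In HET at day 3, RASD1 was higher and RNF112 lower, 2 of 36 or 5.56% against 3.28% of all genes (2.52% higher, 0.761% lower). With the block 6 members were called there, and 8.79% of all genes. HET and WT did not overlap for 4 members, against 8.72% of all genes. KO and HET differed in SHMT1 alone of 36 members (4.35% of all genes, 1.58% lower). Without replicate 4 of HET at day 3, 5 members differed between HET and WT, and 6.43% of all genes did. Without replicate 1 or replicate 3 of either WT or KO at day 3, 7 differed between KO and WT, and 14.6 to 16.6% of all genes did.

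At day 7, 6 of 36 members were higher in KO than in WT (EPN2, B9D1, USP22, RNF112, COPS3 and TOM1L2) and 6 were lower (RASD1, DRG2, SLC47A1, MFAP4, SHMT1 and PLD6). That is 33.3% of those tested, where 32.6% of all genes were called, a share near the background (17% higher and 15.6% lower over all genes). In HET, RNF112 and FAM83G were higher and RASD1 and MFAP4 lower, 4 of 36 or 11.1% against 14.4% of all genes (8.31% higher, 6.1% lower). KO lay outside the WT range for 14 members, 7 above and 7 below, where 40% of all genes did, and HET for 6, where 14.9% did. Without replicate 1 of HET at day 7, 11 members differed between HET and WT, and 34.6% of all genes did. KO against HET gave 0 of 36 in edgeR (1.4% of all genes), 5 at an unadjusted p under 0.05 and 2 by DESeq2 (3.95% of all genes). The comparisons of KO and of HET with WT use the same WT libraries at each day.

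**Figure D2:**
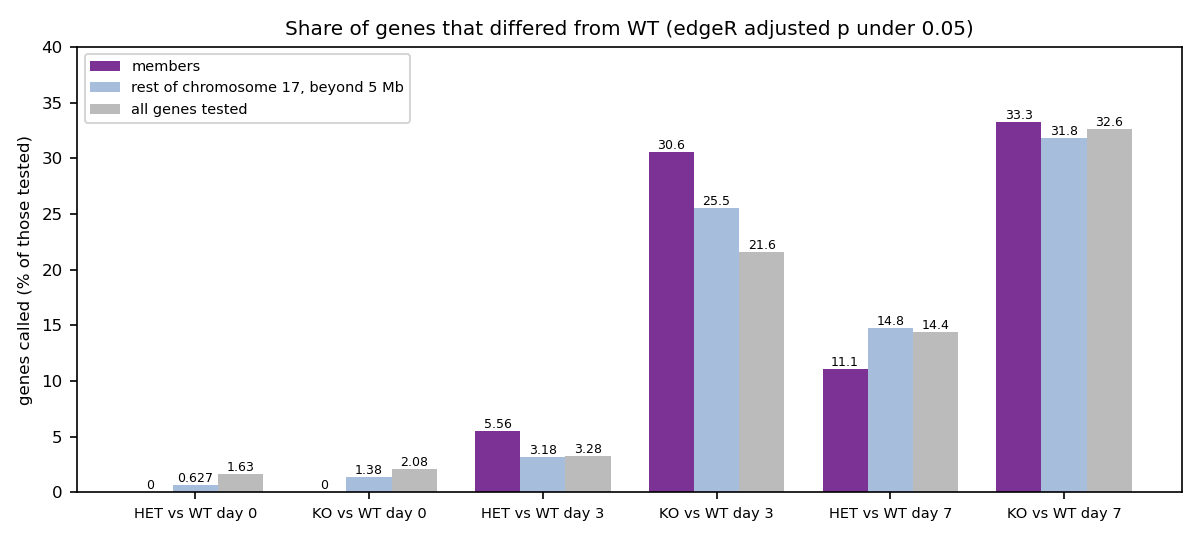
Share of genes tested that were called (%, edgeR adjusted p under 0.05) in each comparison with WT, for the members, for genes of chromosome 17 more than 5 Mb away from them and for all genes tested. The member bars stand at 0 on day 0, at 30.6% for KO on day 3 and at 33.3% for KO on day 7, beside 21.6% and 32.6% for all genes.

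Among the signalling and anchoring proteins, the 6 members of which 5 were tested at day 3, RASD1 was called in 4 of the 6 comparisons with WT. RASD1 is a small Ras-family protein first found as induced by dexamethasone, and its gene lies beside PEMT. In WT it stood at 0.687, 0.979, 0.518 and 0.721 CPM at day 0, at 59.3, 51.0, 59.8 and 56.0 at day 3 and at 29.1, 43.1, 22.3 and 35.8 at day 7. In HET it stood at 104, 113, 152 and 92.0 CPM at day 3 and at 16.96, 8.11, 4.82 and 7.91 at day 7. In KO it stood at 109, 76.1, 102 and 98.0 CPM at day 3 and at 4.96, 4.50, 3.89 and 5.03 at day 7. Every mutant library was thus above every WT library at day 3 and below every WT library at day 7. The day 3 log2 differences were 0.76 (SE 0.17, adjusted p = 0.0074) in KO and 1.04 (SE 0.17, adjusted p = 0.00415) in HET. The day 7 log2 differences were -2.83 (SE 0.34, adjusted p = 0.000111) in KO and -1.80 (SE 0.33, adjusted p = 0.00394) in HET. The change of the difference between the 2 days was itself past the threshold, at -3.6 (SE 0.38, adjusted p = 3.62e-08) in KO and -2.81 (SE 0.37, adjusted p = 1.41e-05) in HET.

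FAM83G, which anchors casein kinase 1, showed the steepest loss in WT, from 29.8 to 38.2 CPM at day 0 to 0.138 to 0.385 at day 7. Its 4 HET libraries of day 7 held 0.984, 0.434, 0.367 and 0.803 CPM and the WT libraries 0.303, 0.19, 0.385 and 0.138, groups that overlap. The log2 difference was 1.34 (SE 0.42, adjusted p = 0.0489), and the call was lost when single libraries were left out. At day 3 its KO libraries held 0.168, 0.694, 0.224 and 2.15 CPM against 1.77, 1.62, 2.68 and 10.8 in WT, overlapping groups with a log2 difference of -2.39 (SE 1.11, adjusted p = 0.146) that was called lower with the block. The ERK5 kinase MAPK7 and the kinase A anchor AKAP10 were not called in any comparison with WT. Of the 6 partners of MAPK7 in the ERK5 cascade, 1 was higher in KO at day 3, where 12.6% of all genes were. It was the transcription factor MEF2C, at 1.04 (SE 0.27, adjusted p = 0.0143).

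**Figure D3:**
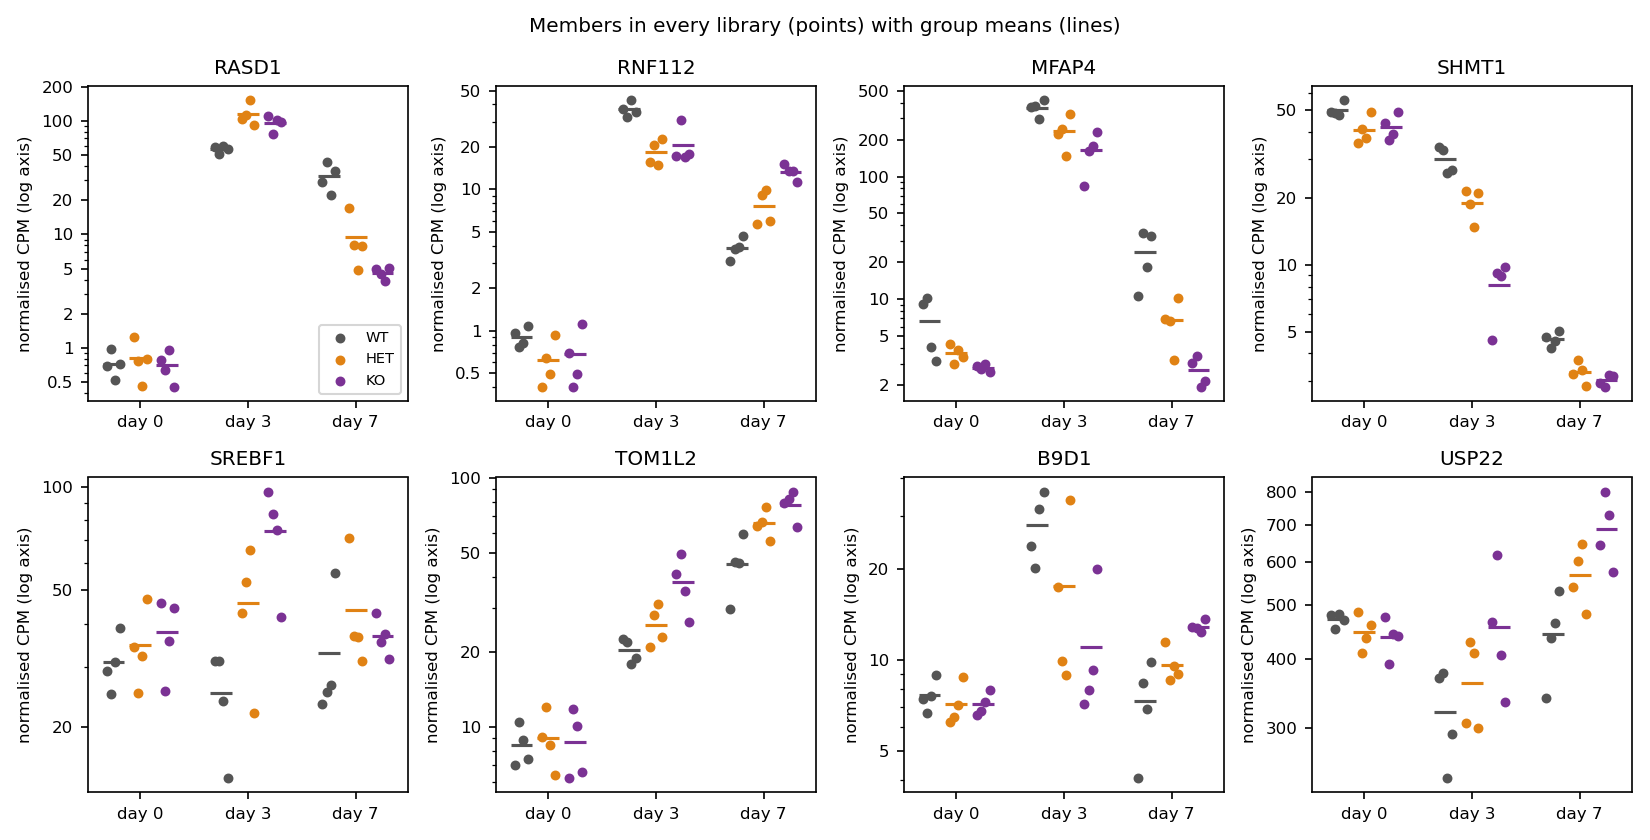
Normalised CPM (log axis) of 8 members in every library, by day and genotype; points are libraries and lines are means of the 4. RASD1 is higher in HET and KO at day 3 and lower at day 7, RNF112 does the reverse, and SHMT1 in KO at day 3 lies between 4.57 and 9.86, below all WT libraries of that day.

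Among the 8 ubiquitin, transcription and RNA regulators the clearest was RNF112, a RING finger protein of brain also called neurolastin. In WT it stood at 0.769 to 1.08 CPM at day 0, at 37.1, 32.6, 42.8 and 35.6 at day 3 and at 3.12, 3.77, 3.91 and 4.66 at day 7. HET held 15.6, 20.8, 15.0 and 22.7 CPM at day 3 and 5.67, 9.14, 9.85 and 5.98 at day 7. KO held 17.3, 31.0, 16.9 and 17.7 CPM at day 3 and 15.0, 13.5, 13.5 and 11.23 at day 7. The mutants lay below all WT libraries at day 3 and above all of them at day 7, the reverse of RASD1. The log2 differences were -0.86 (SE 0.21, adjusted p = 0.0114) in KO and -0.98 (SE 0.21, adjusted p = 0.023) in HET at day 3, and both calls were lost when single libraries were left out. At day 7 they were 1.78 (SE 0.22, adjusted p = 0.000145) in KO and 0.98 (SE 0.22, adjusted p = 0.0111) in HET. From day 3 to day 7 the difference moved by 2.62 (SE 0.34, adjusted p = 1.43e-06) in KO and by 1.99 (SE 0.34, adjusted p = 0.000518) in HET.

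USP22, the deubiquitinase of the SAGA coactivator, was the most abundant member of this role. At day 7 it held 340.2, 436, 464 and 532 CPM in WT and 644, 802, 728 and 574 in KO, all KO libraries being above all WT libraries, with a log2 difference of 0.63 (SE 0.18, adjusted p = 0.0155). COPS3, a subunit of the COP9 signalosome, held 46.0, 42.4, 64.48 and 52.9 CPM in WT and 83.5, 89.96, 77.1 and 64.57 in KO at day 7, again without overlap, at 0.62 (SE 0.18, adjusted p = 0.0168). The COPS3 call was lost with the structural RNA share as a covariate. That share itself differed with genotype at day 7, at 14.5 to 25.6% in WT and 9.9 to 15.8% in KO. The ribosome-associated GTPase DRG2 held 21.98, 21.9, 21.7 and 24.0 CPM in WT, 18.9, 17.5, 15.9 and 16.02 in HET and 14.7, 17.2, 15.4 and 14.03 in KO at day 7. Its log2 difference in KO was -0.55 (SE 0.13, adjusted p = 0.00673), and its HET libraries also lay below all WT libraries without passing the threshold. The Mediator subunit MED9, the ubiquitin ligase receptor GID4, the RNA demethylase ALKBH5 and the actin remodeller FLII were not called against WT. This holds for the 6 comparisons in the main edgeR fit of each day, without the block.

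Partners of these regulators were mostly not called. Of all genes tested, 17% were higher in KO at day 7 and 8.93% lower in KO at day 3. Of 9 other COP9 subunits, COPS8 was higher in KO at day 7 (0.41, SE 0.15, adjusted p = 0.0478) and COPS6 lower in KO at day 3 (-0.66, SE 0.22, adjusted p = 0.0426). Of 10 genes of the CTLH ligase that GID4 serves, RMND5A (0.63, SE 0.16, adjusted p = 0.00831) and YPEL5 (0.5, SE 0.14, adjusted p = 0.0141) were higher in KO at day 7. None of the 3 genes of the SAGA deubiquitinase module passed in any comparison with WT, and of 7 Mediator middle-module genes only MED7 did, in KO at day 7 (0.7, SE 0.22, adjusted p = 0.0271).

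In lipid and aldehyde metabolism 1 of 5 members tested was higher in KO at day 3 (12.6% of all genes) and 2 were lower (8.93%). SREBF1 encodes SREBP-1, a driver of fatty acid synthesis, and its gene meets the end of RAI1 on the opposite strand, with overlapping ends. At day 3 it held 31.0, 31.2, 23.9 and 14.2 CPM in WT, 42.9, 52.9, 65.7 and 21.9 in HET and 96.9, 83.4, 75.2 and 41.7 in KO. All KO libraries lay above all WT libraries, and the log2 difference was 1.55 (SE 0.34, adjusted p = 0.00591). Because the use of strand in counting is not given in the sources used here, reads where SREBF1 and RAI1 overlap cannot be assigned with certainty. At day 7 its KO and WT libraries overlapped, and the difference had moved by -1.4 (SE 0.45, adjusted p = 0.0249) since day 3. Of 14 partner genes of SREBP control and fatty acid synthesis, 3 were higher (SCD, ACLY and ELOVL6) and ME1 lower in KO at day 3, where 12.6% of all genes were higher and 8.93% lower, with a list median of 0.33. At day 7, 7 of the 14 were higher in KO and 1 lower, where 17% and 15.6% of all genes were, with a list median of 0.78 against -0.04 over all genes; the 4 with the smallest adjusted p were ELOVL6 (1.33, SE 0.19), ACACA (1.32, SE 0.19), ME1 (1.37, SE 0.27) and FADS2 (1.07, SE 0.26). In HET at day 7, 5 of the 14 were higher, against 8.31% of all genes, and none lower.

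SHMT1, the cytosolic enzyme that moves a carbon unit from serine to folate, fell through the WT course, from 47.7 to 55.4 CPM at day 0 to 34.2, 33.2, 26 and 26.8 at day 3 and 4.72, 4.25, 4.53 and 5.03 at day 7. At day 3 HET held 21.6, 18.9, 14.8 and 21.2 CPM and KO 4.57, 9.18, 8.92 and 9.86. The 3 genotypes did not overlap at that day. The log2 differences at day 3 were -1.91 (SE 0.23, adjusted p = 0.000102) for KO against WT, -1.27 (adjusted p = 0.00858) for KO against HET and -0.63 (adjusted p = 0.189) for HET against WT. At day 7 the KO libraries held 2.95, 2.83, 3.18 and 3.18 CPM, again below all WT libraries, at -0.61 (SE 0.18, adjusted p = 0.0221). The change in the KO difference was -1.63 (SE 0.23, adjusted p = 2.8e-05) from day 0 to day 3 and 1.28 (SE 0.24, adjusted p = 0.000218) from day 3 to day 7. The proliferation-marker sum was 985 to 1980 CPM in WT, 1190 to 1700 in HET and 364 to 1050 in KO at day 3, with 2 of its 4 genes called lower in KO. Its part in the SHMT1 difference was not tested.

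ALDH3A2, the fatty aldehyde dehydrogenase lost in Sjögren-Larsson syndrome, held 79.4, 81.9, 74.4 and 109.5 CPM in WT and 49.8, 49.1, 51.3 and 53.8 in KO at day 3. The groups did not overlap, and the log2 difference was -0.78 (SE 0.17, adjusted p = 0.00647). By day 7 the difference had moved back by 0.84 (SE 0.2, adjusted p = 0.0023), and KO libraries at 43.4 to 51.7 CPM overlapped WT at 39.2 to 49.2. PEMT, which makes phosphatidylcholine and is the nearest member before RAI1, held 16.4, 12.7, 11.4 and 16.01 CPM in WT and 4.69, 4.90, 10.8 and 15.0 in KO at day 3. These overlapped, and the log2 difference of -0.68 had an adjusted p of 0.187 without the block. ALDH3A1, an aldehyde dehydrogenase of cornea and stomach, was close to the detection limit, with 12 to 18 counts in the WT libraries of day 0 and 1 to 5 in those of day 7. PRPSAP2, a regulator of PRPP synthetase, stood at 0.45 (SE 0.17, adjusted p = 0.0503) in KO at day 7 and was called higher there by DESeq2.

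In nutrient sensing, autophagy and endosomal sorting, 2 of 5 members were higher in KO at day 3 (12.6% of all genes) and 2 at day 7 (17%). None were lower in the main edgeR fit, without the block. With the block at day 3, SMCR8 of this role was called higher as well and EPN2 lower. TOM1L2, an endosomal sorting adaptor, was in both. It rose through the WT course, from 7.06 to 10.4 CPM at day 0 to 22.5, 21.8, 17.9 and 18.9 at day 3 and 29.7, 45.8, 45.5 and 59.6 at day 7. KO held 41.1, 49.4, 35.1 and 26.4 CPM at day 3 and 78.8, 82.0, 87.7 and 63.2 at day 7, above all WT libraries on both days. The log2 differences were 0.88 (SE 0.19, adjusted p = 0.00541) and 0.79 (SE 0.19, adjusted p = 0.00825). The sum of 9 neuron markers was also higher in KO: at day 3 it was 1410 to 1780 CPM in WT, 2200 to 5020 in HET and 5710 to 9320 in KO. At day 7 it was 6950 to 13900 in WT, 14700 to 19900 in HET and 17000 to 23400 in KO. At day 7 TUBB3 (mean 3030 in KO, 3750 in WT) and ELAVL3 (278 and 298) were lower in KO, and the other markers of the list were higher. The part of these markers in the TOM1L2 difference was not tested.

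Folliculin, encoded by FLCN and lost in Birt-Hogg-Dubé syndrome, held 56.2, 51.4, 51.2 and 72.8 CPM in WT and 104, 95.8, 71.9 and 97.8 in KO at day 3. The groups overlapped by 1 library, at a log2 difference of 0.66 (SE 0.20, adjusted p = 0.0332). At day 7 KO held 44.0, 46.7, 46.8 and 49.1 CPM against 48.5, 65.3, 68.8 and 77.8 in WT (-0.48, adjusted p = 0.0654), and the change between the days was -1.15 (SE 0.24, adjusted p = 0.000861). The epsin EPN2 rose in WT from 33.2 to 37.9 CPM at day 0 to 63.0 to 86.3 at day 3 (1.03, SE 0.14), a rise that was gone on the TPM scale, where the changes of ULK2 and EPN2 were -0.08 and 0.00. At day 7 it held 37.8, 42.5, 46.8 and 54.6 CPM in WT and 66.3, 62.1, 64.4 and 56.9 in KO, without overlap, at 0.46 (SE 0.13, adjusted p = 0.0199), a call that was lost with the structural RNA share as a covariate and without the filter on low counts. SMCR8, which acts with C9orf72 at the lysosome, fell in WT from 80.4 to 85.1 CPM at day 0 to 20.9 to 32.6 at day 3 (-1.69, SE 0.16, adjusted p = 5.48e-07). It was not called against WT at any day in the main edgeR fit, without the block. The autophagy kinase ULK2 was not called against WT either. Its partner ULK1 was lower in KO at day 7 (-0.86, SE 0.22, adjusted p = 0.0107), as were 15.6% of all genes.

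Of the 5 mitochondrial members, 1 was lower in KO at day 3 (8.93% of all genes) and 1 at day 7 (15.6%). TOP3A, the topoisomerase that resolves linked DNA in nucleus and mitochondria, held 65.9, 68.2, 56.3 and 59.5 CPM in WT and 33.9, 60.65, 38.4 and 33.35 in KO at day 3. KO replicate 2 overlapped WT, and the log2 difference was -0.61 (SE 0.19, adjusted p = 0.0345), a call that was lost with other scalings. RMI2, its partner in the dissolvasome, was also lower in KO at day 3 (-1.57, SE 0.29, adjusted p = 0.00163), as were 8.93% of all genes. PLD6, a phospholipase of the mitochondrial surface, went in WT from 3 to 6 counts a library at day 0 to 2.91, 3.25, 5.07 and 1.82 CPM at day 7. KO held 1.18, 0.721, 1.04 and 1.38 CPM at day 7, below all WT libraries, at -1.59 (SE 0.54, adjusted p = 0.0383). The call was lost when single libraries were left out and with the structural RNA share as a covariate. The gene shares its locus and strand with a read-through transcript over FLCN and PLD6. The nucleotidase NT5M rose in WT from day 0 to day 3 (2.23, SE 0.26, adjusted p = 5.48e-06). At day 3 in KO, NT5M stood at -1.11 (SE 0.44, adjusted p = 0.09) and the fission receptor MIEF2 at -0.88 (SE 0.40, adjusted p = 0.134). Both were called lower with the block and in 1 fit of all 36 libraries, and NT5M also by DESeq2. The ATP synthase assembly factor ATPAF2 was called against WT in none of these fits.

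Of 6 cytoskeletal and ciliary members tested, 2 were lower in KO at day 3 (8.93% of all genes) and 1 was higher at day 7 (17%). B9D1, a protein of the ciliary transition zone, held 23.95, 20.15, 31.6 and 36.1 CPM in WT and 7.16, 7.94, 9.23 and 19.96 in KO at day 3, just without overlap, at a log2 difference of -1.35 (SE 0.43, adjusted p = 0.0405). At day 7 it held 4.06, 8.38, 6.90 and 9.85 CPM in WT and 12.9, 12.7, 12.4 and 13.7 in KO, without overlap, at 0.82 (SE 0.23, adjusted p = 0.0173). KO was thus below WT at day 3 and above it at day 7, and the change between the days was 2.16 (SE 0.44, adjusted p = 0.000629). Of 12 other transition zone genes, TMEM216 (-0.91, SE 0.24, adjusted p = 0.0169) and AHI1 (-0.73, SE 0.2, adjusted p = 0.0204) were lower in KO at day 3. Of all genes 8.93% were. None of the 12 were called at day 7, where 32.6% of all genes were in KO. SPECC1, a coiled-coil protein of actin and microtubules, was lower in KO at day 3 at -0.79 (SE 0.25, adjusted p = 0.0396). The myosin phosphatase partner MPRIP rose in WT from day 0 to day 3 (1.91, SE 0.17, adjusted p = 3.94e-07), fell from day 3 to day 7 (-1.23, SE 0.17, adjusted p = 3.53e-05) and was not called against WT. Neither were the polarity protein LLGL1, the stereocilia myosin MYO15A or, in the main fit of each day, the axonemal subunit DRC3. With all 36 libraries in 1 fit, DRC3 was called higher in KO at day 7. The LLGL1 partner LLGL2 was lower in KO (-4.54, SE 0.73, adjusted p = 0.00063) and in HET (-2.2, SE 0.61, adjusted p = 0.0294) at day 7. Of all genes, 15.6% were lower in KO and 6.1% in HET at that day.

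Among transporters, the lectin and the matrix protein, MFAP4 was called in 3 of the 6 comparisons with WT. It is a glycoprotein of elastic microfibrils. In WT it held 9.15, 10.2, 4.08 and 3.12 CPM at day 0, 367, 373, 292 and 418 at day 3 and 10.6, 34.7, 18.3 and 32.9 at day 7. HET held 222, 245, 146 and 322 CPM at day 3 and 6.97, 6.67, 3.23 and 10.3 at day 7. KO held 83.9, 162, 177 and 231 CPM at day 3 and 3.03, 3.43, 1.95 and 2.17 at day 7. KO lay below every WT library on all 3 days, since its day 0 libraries held 2.86, 2.72, 2.96 and 2.55 CPM. The log2 differences in KO were -1.23 at day 0 (adjusted p = 0.0834), -1.17 at day 3 (SE 0.29, adjusted p = 0.0121) and -3.19 at day 7 (SE 0.42, adjusted p = 0.0002), and HET stood at -1.84 (SE 0.40, adjusted p = 0.00885) at day 7. The difference moved by -2.04 (SE 0.5, adjusted p = 0.00365) in KO between day 3 and day 7.

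The sum of 5 mesenchymal marker transcripts was lower in KO at day 3 and at day 7, as MFAP4 was, but not at day 0. By group means COL1A1 was nearly all of this sum, except in KO at day 7, where it was 0.413 of 0.873 CPM. The sum was 141 to 860 CPM in WT and 102 to 1070 in KO at day 0, 183 to 462 in WT, 123 to 759 in HET and 33.2 to 176 in KO at day 3, and 19.5 to 28.4 in WT, 0.882 to 27.2 in HET and 0.137 to 1.64 in KO at day 7. COL1A1 was the only one of the 5 called lower in KO at day 7, while DCN was at 0 in all WT libraries of day 3 and of day 7 and POSTN in those of day 3. COL3A1, below 1 CPM, had a higher mean in KO than in WT at day 3 (0.406 against 0.0752) and day 7 (0.247 against 0.00593). DCN did too, and POSTN and LUM changed direction between these days. Proliferation markers also differed, with a sum of 27.2 to 182 CPM in WT, 9.11 to 20.3 in HET and 10.9 to 12.9 in KO at day 7. The part of either in the MFAP4 difference was not tested. The organic cation exporter SLC47A1 held 1, 108, 26 and 40 counts in WT and 0, 2, 1 and 3 in KO at day 7, so KO was at the floor and WT replicate 1 overlapped it (adjusted p = 0.00984). SLC47A2, a related exporter, was not called in the main edgeR fit of each day, without the block.

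Members whose starts face each other did not always move together. TOM1L2 and DRC3, with starts 391 bp apart, had a correlation of 0.82 over the 9 group means, TOP3A and SMCR8 (303 bp) of 0.81, B9D1 and MAPK7 (472 bp) of 0.79 and ATPAF2 and GID4 (83 bp) of 0.02. These are descriptions over 9 means that share the day of induction. In the main edgeR fit of each day, without the block, no comparison with WT called both genes of a pair. There TOM1L2 was called in KO at day 7 and DRC3 was not (0.99, SE 0.44, adjusted p = 0.0998). DRC3 held 6.70, 7.06, 7.56 and 4.94 CPM in KO and 0.878, 4.72, 2.61 and 4.89 in WT, all KO libraries being above all WT libraries. TOP3A was lower in KO at day 3 while SMCR8 stood at 0.52 (SE 0.27, adjusted p = 0.191). With the block both passed in that comparison, in opposite directions, TOP3A at -0.64 (adjusted p = 0.00379) and SMCR8 at 0.48 (adjusted p = 0.029). TOM1L2 and DRC3 were both called higher in KO at day 7 with all 36 libraries in 1 fit. B9D1 at -1.35 stood beside MAPK7 at -0.2 (adjusted p = 0.372). GID4 was at -0.47 (adjusted p = 0.0751) and ATPAF2 at -0.04 (adjusted p = 0.894) in the same comparison. Differences within a pair were not tested.

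**Figure D4:**
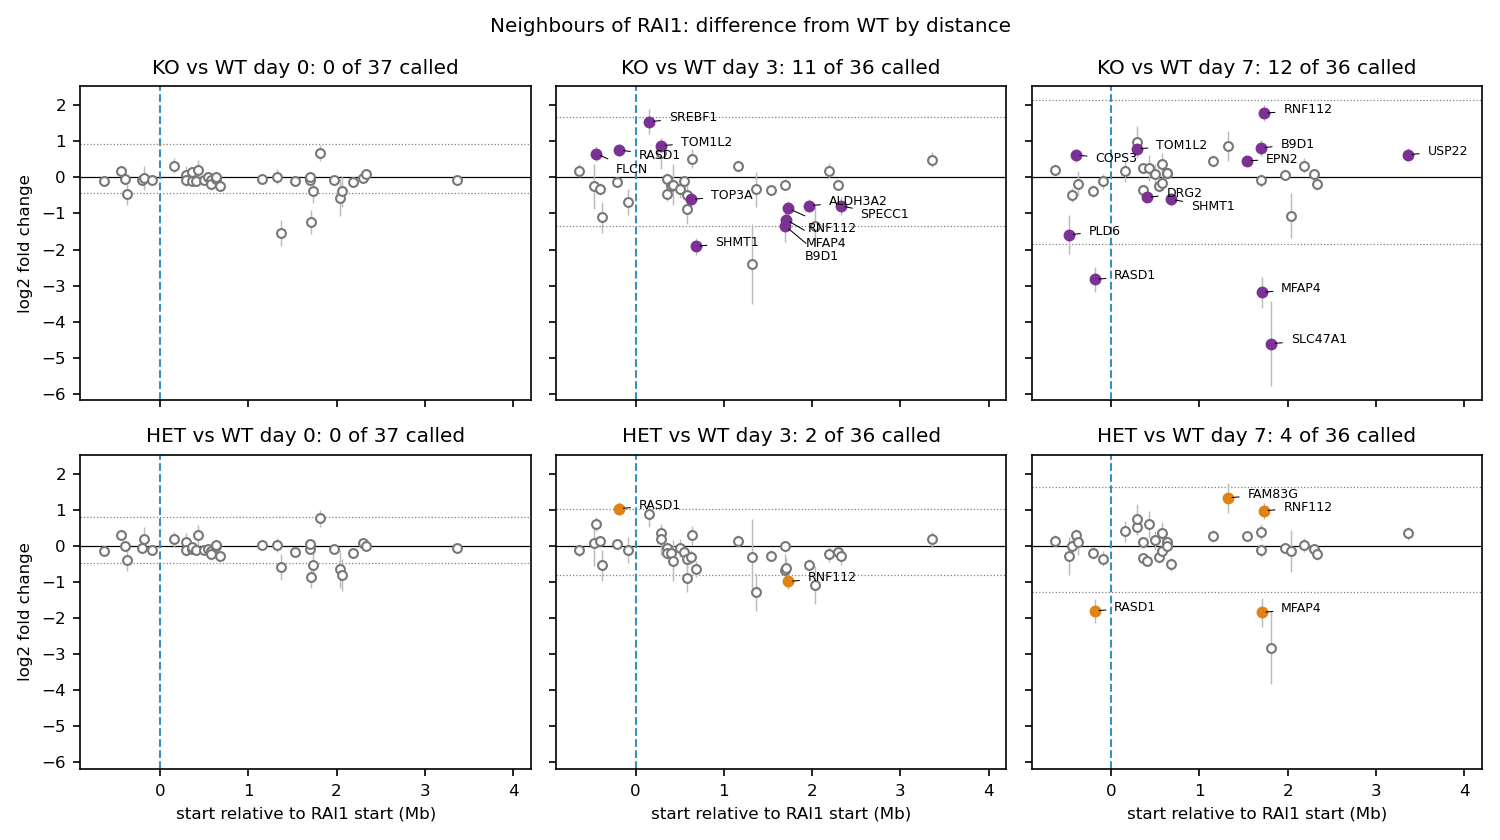
Log2 fold change against WT of each member tested, by the distance of its start from that of RAI1 (Mb, dashed line at 0), with SE bars; filled points are called by edgeR, dotted lines are the 5th and 95th percentiles of all genes tested. Called members lie on both sides of RAI1 and in both directions, from SREBF1 beside it to USP22 at the far end.

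Calls were spread over the whole interval. Within 1 Mb of the RAI1 start, 6 of 22 members were called in KO at day 3 and 6 of 22 at day 7, and beyond 1 Mb 5 of 14 and 6 of 14 were, shares whose difference was not tested. Genes of chromosome 17 within 5 Mb of the interval were called at 25.7% in KO at day 3 and 30.6% at day 7, and the rest of the chromosome at 25.5% and 31.8%. In HET the flanks were called at 2.86% at day 3 and 19.4% at day 7. The plot against distance shows SREBF1, the neighbour after RAI1, high in KO at day 3, and PEMT, the neighbour before it, among the uncalled members.

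The timing of the differences was tested as a change of the genotype difference between days. In KO 3 of 38 members changed between day 0 and day 3 (SHMT1, ALDH3A2 and SPECC1, all towards lower), 7.89% against 8.55% of all genes (3.19% towards lower). Between day 3 and day 7 it was 11 of 38, 28.9% against 18.5% (7.6% towards higher and 10.9% towards lower over all genes), of which EPN2, ALDH3A2, B9D1, RNF112, COPS3, SHMT1 and TOP3A moved towards higher and SREBF1, RASD1, FLCN and MFAP4 towards lower. In HET 0 changed between day 0 and day 3 in edgeR (0.271% of all genes, 1 member at an unadjusted p under 0.05, 0 by DESeq2). Between day 3 and day 7, 3 changed in HET (EPN2 and RNF112 towards higher, RASD1 towards lower), 7.89% against 4.74% (2.06% towards higher, 2.69% towards lower).

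On the deposited TPM values, tested with limma, 0 of the members passed in KO or HET at day 3 and at most 3 in KO at day 7. These were RASD1 and MFAP4 with either pseudocount and RNF112 with the smaller. Few of all genes passed in these fits: 3.78 to 5.78% in KO and 0.181 to 0.492% in HET at day 3, and 4.64 to 8.82% in KO at day 7. At day 0, 1 member passed in KO, beside 1.16 to 1.37% of all genes. LGALS9C and GRAP have near copies nearby, so their counts are uncertain, and the labels do not say whether replicates came from separate inductions beyond calling them biological, so p-values measure the spread between these libraries.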

How the data were processed

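Ribosomal RNA was removed from total RNA before paired-end sequencing at 151 bp, per the labels' protocols. The authors deposited expected counts per gene, whole numbers in every cell, and TPM values. The submitters' processing notes name cutadapt 4.8, FastQC 0.11.8, MultiQC 1.20, STAR 2.7.8a, RSEM 1.3.3 and GRCh38. The annotation release and the use of strand are not given in the sources used here. Positions came from GENCODE 29. The 4 reporter rows, at most 0.0171% of a library, were left out.

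Genotypes were compared within each day on 12 libraries by the quasi-likelihood test of edgeR 4.0.16 under R 4.3.3. Libraries were scaled by TMM, genes were filtered by filterByExpr, and p-values were adjusted over all genes tested (Benjamini-Hochberg, called under 0.05). Days were compared in WT on its own 12 libraries, and changes of a genotype difference between days were fitted on all 36. CPM shown were scaled by TMM over all 36. On data simulated after KO against WT at day 7 (21209 genes, 200 changed by 2-fold) 98% of the changed genes were recovered and 4.39% of the calls were false. The simulation gave every gene the same spread beyond counting noise and changed only genes with a mean above 1 CPM. It checks that the fit runs correctly and does not measure recovery or false calls in the real libraries. Alternatives were DESeq2 1.42.0 and its size factors, library size alone, no filter, the replicate number as a block, limma 3.58.1 on log2(TPM + 1) and log2(TPM + 0.1), the share of small structural RNAs as a covariate, 1 fit on all libraries, and each library left out.

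Same-numbered libraries correlated in their deviations from the group means for every number in KO against WT at day 0 (0.252 to 0.629), KO against WT at day 3 (0.14 to 0.549) and HET against WT at day 3 (0.166 to 0.767), and in no other comparison. The pairing comes from the data, since the labels give the numbers alone. Per-library values are given for members called in a comparison with WT with a mean of at least 1 CPM in the higher group (at most 16, smallest adjusted p first, which left out SPECC1), for the members next to RAI1 and for the 3 largest rises and falls in WT. The members and all lists were chosen with earlier results of these data known. The folate-cycle list is not reported here.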

Additional observations from a re-analysis of the deposited data

Results flagged for a closer look

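Among 171 groups of 4 libraries (19 members in 9 groups), 11 had 1 library far from the other 3 by Dixon's criterion, where chance alone would give about 8.6. RNF112 in KO at day 3 stood at 31.0 CPM in replicate 2 against 16.9 to 17.7. SREBF1 at day 7 stood at 56.1 in WT replicate 4 against 23.3 to 26.6, and at 71.0 in HET replicate 1 against 31.1 to 36.9. DRG2 in WT at day 7 stood at 24.0 in replicate 4 against 21.7 to 22, COPS3 in WT at day 0 at 110.0 in replicate 1 against 102 to 103, and PEMT in WT at day 0 at 15.8 in replicate 2 against 13.5 to 13.6. Replicate 4 of KO at day 3 was high in B9D1 (20 against 7.16 to 9.23) and PLD6 (3.14 against 0.783 to 1.02). PLD6 in HET at day 7 stood at 6.73 in replicate 1 against 1.22 to 1.57. FAM83G at day 3 was high in replicate 4 of WT (10.8 against 1.62 to 2.68) and of HET (11.5 against 0.289 to 0.911).

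The genotype difference of 12 members changed between days in 1 or both mutants, by a test of that change. From day 3 to day 7 in KO the log2 change was -3.6 for RASD1, -2.04 for MFAP4, -1.4 for SREBF1, -1.15 for FLCN, 0.7 for TOP3A, 0.79 for EPN2, 0.84 for ALDH3A2, 0.92 for COPS3, 1.28 for SHMT1, 2.16 for B9D1 and 2.62 for RNF112. In HET it was -2.81 for RASD1, 0.56 for EPN2 and 1.99 for RNF112. From day 0 to day 3 in KO it was -1.63 for SHMT1, -0.66 for ALDH3A2 and -0.84 for SPECC1. The edgeR adjusted p ranged from 3.62e-08 (RASD1 in KO) to 0.049 (EPN2 in HET).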

How the results depend on the processing

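Counts of members called held within 1.5 times under scaling by DESeq2 size factors or library size in all 15 comparisons. The percentages that follow are shares of all genes called in the same fit. DESeq2 gave 7 for HET against WT at day 7 (19.9%) and 6 for the KO change from day 0 to day 3 (11.4%). It gave 2 for KO against HET at day 7 (3.95%) and 2 for KO against WT at day 0 (4.41%). Without the filter on low counts the KO change from day 0 to day 3 gave 1 (3.37%). With all 36 libraries in 1 fit, KO against WT gave 19 at day 3 (26.9%) and 1 at day 0 (1.38%). In that fit HET against WT gave 5 at day 3 (4.69%) and KO against HET 2 at day 7 (3.84%). With the structural RNA share as a covariate, KO against HET gave 2 at day 3 (8.19%) and 1 at day 7 (6.16%). With the replicate block, KO against WT at day 3 gave 21 (37.7%) and HET against WT at day 3 gave 6 (8.79%). KO against HET at day 3 gave 3 (12.7%) and the KO change from day 0 to day 3 gave 6 (10.3%). The other blocked counts stayed within 1.5 times. Outside the 3 comparisons taken as paired, pairing by number was not established, and for the changes between days it was not examined. On TPM with either pseudocount, both day 3 comparisons with WT, KO against HET at day 3 and HET against WT at day 7 gave 0, and KO against WT at day 0 gave 1. On log2(TPM + 1), 3.78% of all genes were called in KO against WT at day 3 and 0.181% in HET against WT at day 3. The shares there were 0.181% for KO against HET at day 3, 1.25% for HET against WT at day 7 and 1.16% for KO against WT at day 0. KO against WT at day 7 gave 2 on log2(TPM + 1) (4.64%) and 3 on log2(TPM + 0.1) (8.82%), and WT day 7 against day 3 gave 14 on the first (30.2%).

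From day 0 to day 3 in WT, 11 members changed sign on log2(TPM + 1) and log2(TPM + 0.1), where the median gene moved by -0.38 and -0.76: MED9 (-0.34, -0.39), ATPAF2 (-0.28, -0.32), GID4 (-0.49, -0.62), ALKBH5 (-0.91, -0.96), LLGL1 (-0.90, -0.95), EPN2 (0.00, -0.01), MAPK7 (-0.61, -0.68), ALDH3A2 (-1.01, -1.05), ULK2 (-0.08, -0.12), AKAP10 (-0.68, -0.80) and SPECC1 (-0.26, -0.27).

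Leaving out 1 library gave 7 to 14 members for KO against WT at day 3, 8 to 13 at day 7 and 0 to 1 at day 0. HET against WT gave 1 to 5 at day 3, 3 to 11 at day 7 and 0 to 0 at day 0. KO against HET gave 1 to 2 at day 3, 0 to 3 at day 7 and 0 to 0 at day 0. WT gave 24 to 27 for day 3 against day 0 and 18 to 25 for day 7 against day 3. The KO change gave 1 to 8 from day 0 to day 3 and 10 to 15 from day 3 to day 7, and the HET change 0 to 0 and 2 to 7. The extremes above came without replicate 1 of HET at day 7 (11), replicate 4 of HET at day 3 (5 and 7), replicate 4 of KO at day 3 (8 and 2) and replicate 3 of HET at day 7 (3). In the same order, these fits called 34.6%, 6.43 and 5.62%, 12.4 and 5.63%, and 2.81% of all genes. The causes of these changes were not tested. Calls against WT lost without at least 1 library were those of PLD6, FLCN, COPS3, TOP3A, FAM83G, EPN2, USP22, SPECC1, SHMT1 at day 7, B9D1 at day 3 and RNF112 at day 3. Changes between days lost in this way were those of SREBF1 (KO, day 3 to day 7), EPN2 (HET, day 3 to day 7), and ALDH3A2 and SPECC1 (KO, day 0 to day 3). In the WT course they were those of GID4 and MIEF2 from day 0 to day 3 and of COPS3, NT5M, DRC3, DRG2, MAPK7, SLC47A1 and USP22 from day 3 to day 7.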
